A study of Mus musculus with 18 samples.

Results

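The Adam22 family and the Lgi ligands are 7 genes in the mouse: the receptors *Adam11*, *Adam22* and *Adam23* and the secreted ligands *Lgi1*, *Lgi2*, *Lgi3* and *Lgi4*. They were taken by gene symbol, with results of these data already known, from the 23038 gene symbols of the deposited abundance table and from the 1991 rows of the deposited table of NOVA2-dependent alternative splicing events. All 7 had a row of abundance. The receptors had 10 rows of splicing events, 7 in *Adam22*, 2 in *Adam11* and 1 in *Adam23*, and the 4 ligands had none. Over the whole abundance table, 2.19% of the gene symbols had an event row.

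ADAM11, ADAM22 and ADAM23 are membrane proteins built like the ADAM proteases but without the residues needed for proteolysis, and they work as receptors and scaffolds. LGI proteins are secreted by neurons and glia and bind these receptors through a propeller of EAR repeats. LGI1 bound to ADAM22 is found at synapses and axons together with PSD-95 family scaffolds, AMPA receptors and Kv1 potassium channels, and loss of either protein causes epilepsy. LGI4 is known for its role in peripheral glia, where it acts through axonal ADAM22 during myelination. Exons near the 3′ ends of the receptor genes are alternatively spliced, and in *Adam22* such exons encode parts of the cytoplasmic tail.

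RNA came from the cortex of embryonic day 18.5 mice on a CD1 background, and 4 groups of 3 mice were compared: *Nova2-/-*, the wild types of the *Nova2* litters, *Nova1-/-*, and the wild types of the *Nova1* litters. Midbrain and hindbrain of *Nova1-/-* and wild-type mice entered only through 1 column of splicing values. NOVA1 and NOVA2 are neuronal RNA-binding proteins that regulate alternative splicing and bind clusters of YCAY, in which Y is a pyrimidine. The *Nova2* null allele carries an IRES-Cre cassette at the exon with the initiator methionine. Both knockouts are constitutive, so no cell type was singled out. Total expected counts ranged from 16518172 to 31362018 per mouse. The level of *Nova1*, in CPM, a count scaled to library size so that mice can be compared, was 62.8 ± 18.7 (SD, n = 3) in the wild-type mice of its litters and between 0.0340 and 0.211 in the *Nova1-/-* mice. *Nova2* RNA was lower but not absent in *Nova2-/-* mice, at 17.0, 17.9 and 21.6 CPM against 31.7, 31.6 and 40.9 CPM. The neuronal marker *Neurod6* lay between 248 and 429 CPM in the 12 cortices. Wild-type mouse 3 of the *Nova2* litters correlated less with its group than any other library did, with a mean Spearman coefficient across genes of 0.985 against 0.989 to 0.997, so values that rest on it are also given without it. Wild-type mouse 2 of these litters, which stays in those fits, had the smallest total count. Yet it had 21791 genes with a count, beside 18397 to 19396 in the other cortices.

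The sequences below show what the splicing events alter, and were read from the mouse genome build mm9 with GENCODE M1 annotation. *Adam22* lies on the minus strand of chromosome 5, at chr5:8072352-8368160. The exon with the alternative 5′ splice site in its event is chr5:8094986-8095180, which is coding in this long form of 195 nt in 7 of the 29 annotated transcripts. A shorter form of the same exon has 108 nt, and its 5′ splice site and the downstream one are both followed by GT. The long form is shown with the 87 nt that only the downstream 5′ splice site adds in capitals.
Adam22 alternative exon: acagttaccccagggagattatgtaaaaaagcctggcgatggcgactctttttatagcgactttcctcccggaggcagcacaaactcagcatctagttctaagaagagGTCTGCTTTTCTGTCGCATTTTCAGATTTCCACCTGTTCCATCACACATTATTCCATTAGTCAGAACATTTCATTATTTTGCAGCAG
The cassette exon that 2 further *Adam22* rows name is the last 62 nt of this stretch, chr5:8094986-8095047, where it is preceded by AG.
Adam22 cassette exon: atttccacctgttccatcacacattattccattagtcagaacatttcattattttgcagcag
These rows differ in the exon upstream. One of them starts from the 18-nt coding exon at chr5:8107002-8107019, which 20 of the 29 transcripts hold.
Adam22 18-nt exon: aaactaccgagaacagag

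The motif letters TCAT or TCAC, and likewise CCAT or CCAC, together YCAY, were counted on the transcript strand, with overlapping matches counted. The study kept only events with this motif inside a NOVA CLIP cluster, a stretch bound by the protein, on the exon or the introns beside it. The regions were thus chosen in part for the motif, and the shares of other windows given beside the counts are a description from which nothing is read. The 87 nt added by the downstream splice site of *Adam22* held 5, and the shared 108 nt held none. Among the last 87 nt of 171491 exons of at least this length that precede an intron, 2.41% held 5 or more, 75.1% held at least 1 and the mean was 1.48. The 200 nt of intron before the exon held 6, beside 14.1% of 186729 such windows with 6 or more. The 200 nt after it, chr5:8094786-8094985, held 3, beside 56.7% of 190548 such windows, and are shown with the motif in capitals.
Adam22 intron after the exon: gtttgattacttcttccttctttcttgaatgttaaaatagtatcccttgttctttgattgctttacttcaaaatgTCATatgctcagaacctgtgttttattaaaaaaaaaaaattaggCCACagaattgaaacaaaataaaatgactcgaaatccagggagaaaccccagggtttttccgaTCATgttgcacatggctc

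**Figure D1:**
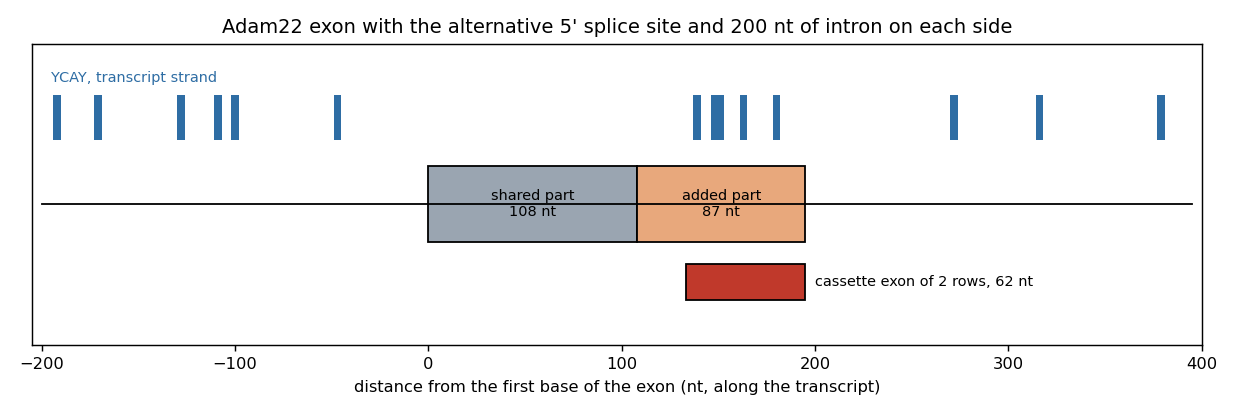
Map of the *Adam22* exon with the alternative 5′ splice site. The x axis is the distance in nt along the transcript from the first base of the exon, the grey box is the 108-nt shared part, the orange box the 87-nt added part, the red box the 62-nt cassette exon and the blue marks are YCAY. Of the 14 marks, 6 lie in the intron before, 5 in the added part, 3 in the intron after and none in the shared part.

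*Adam23* lies on the plus strand at chr1:63492465-63643089. Its single event is a cassette exon in the span chr1:63619461-63639337, whose name in the table does not say which exon is meant. The annotation holds 2 candidate coding exons there, each of 91 nt and used by different transcripts: exon A at chr1:63627711-63627801 in 2 transcripts and exon B at chr1:63631939-63632029 in 3 transcripts. They are shown together because they share 50 of 91 positions, or 54.9%. The positions at which they differ are in capitals.
Adam23 exon A: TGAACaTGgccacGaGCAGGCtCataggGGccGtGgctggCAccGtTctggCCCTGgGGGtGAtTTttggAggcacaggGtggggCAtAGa
Adam23 exon B: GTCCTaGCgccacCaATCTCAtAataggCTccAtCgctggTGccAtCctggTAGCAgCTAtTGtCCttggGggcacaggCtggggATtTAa
Exon A held 2 YCAY and exon B held 4, beside 45.0% and 8.30% of 166268 exon ends of 91 nt with at least as many. In the 200 nt of intron after each exon the counts were 2 and 5, beside 77.3% and 21.3% of windows.

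*Adam11* lies on the plus strand at chr11:102622753-102641576, and its event is a retained intron of 482 nt, chr11:102638963-102639444, between an 18-nt coding exon and the last exon. In 1 annotated transcript the intron is kept, and the reading frame then runs 28 nt into it before a TGA stop codon. The exon is shown with these 28 nt in capitals.
Adam11 exon and start of the intron: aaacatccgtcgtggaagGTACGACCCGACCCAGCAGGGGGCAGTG
The intron held 14 YCAY, with 5 in its first 200 nt, beside 21.3% of windows, and 6 in its last 200 nt, beside 14.1%.

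The splicing of the receptors was followed by ΔI, the inclusion of an event in wild-type mice minus that in knockout mice, on a scale from -1 to 1. The deposited table holds a single value per event and comparison, without replicates or read counts, so the error and the depth behind ΔI are unknown. Every row of the table, 100% of 1991, has a size of at least 0.1 in *Nova2-/-* cortex, so the values in that contrast chose the events and are given as a description. For cassette exons a negative ΔI means more inclusion in the knockout. Event names carry a tag, INC for cassette exons and SPLICE for retained introns. They carry A0 or A1 for alternative 5′ splice sites and M0 for mutually exclusive exons. For the types other than cassette exons it is not stated which form ΔI counted, and no direction is read.

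In *Nova2-/-* cortex, the *Adam22* row with the alternative 5′ splice site had a ΔI of -0.720, and only 0.854% of all rows had a larger size. The cassette exon had a ΔI of -0.502 when spliced from the 91-nt exon upstream of the 18-nt exon, and -0.154 when spliced from the 18-nt exon. Inclusion of this cassette exon was thus higher in *Nova2-/-* mice in both rows, by different amounts. The 4 rows of mutually exclusive exons of *Adam22* had ΔI of 0.147, 0.479, 0.713 and 0.721. All 7 rows of *Adam22* share the exon at chr5:8092731-8092831 as their downstream end, so they count many of the same reads and are not 7 independent changes. With overlapping rows joined, the receptors held 3 regions, 1 in each gene.

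The *Adam23* cassette exon had a ΔI of -0.307 in *Nova2-/-* cortex, that is, more inclusion in the knockout, and 29.6% of all rows had a larger size. The *Adam11* retained intron had a ΔI of -0.631, with 2.31% of rows larger, and this row stands in the table a second time with identical values, as do 19 rows in all. The size of ΔI was at least 0.2 in 8 of the 10 rows of the family, beside 56.2% of all rows, and at least 0.7 in 3, all in *Adam22*, beside 1.05% of all rows. The median size was 0.566 over the 10 rows and 0.223 over all rows. These rows were chosen on that contrast, and nothing is read from the comparison.

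The *Nova1-/-* mice were not used to select the events. In *Nova1-/-* cortex the *Adam22* alternative 5′ splice site had a ΔI of -0.0798, and its cassette exon had -0.147 from the 91-nt exon and -0.0287 from the 18-nt exon. The 4 mutually exclusive rows had 0.0233, 0.0563, 0.0877 and 0.0775, in the order given for *Nova2-/-*. All 7 *Adam22* rows, which share reads, had the same sign in both knockouts, as 44.0% of the 1984 rows did, with sizes in *Nova1-/-* cortex of 10.7% to 29.3% of those in *Nova2-/-* cortex. The *Adam23* cassette exon had -0.0917 in *Nova1-/-* cortex, also of the same sign. The *Adam11* intron had 0.0153, of the opposite sign, and 73.3% of all rows were further from 0.

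At a size of at least 0.1, 1 of the 10 rows was past the limit in *Nova1-/-* cortex, the *Adam22* cassette exon spliced from the 91-nt exon, beside 11.1% of the 1984 rows with a value there. The median size over the rows of the family was 0.0669 and 0.0341 over all rows. In *Nova1-/-* midbrain and hindbrain none of the 10 rows was past 0.1, beside 15.9% of all rows. There the *Adam22* cassette exon had the largest ΔI of the family, -0.0673, the alternative 5′ splice site had -0.0165, the *Adam23* exon -0.0284 and the *Adam11* intron 0.00873. The median size in midbrain and hindbrain was 0.0164 for the family and 0.0378 over all rows. All 10 rows had a smaller size in both *Nova1-/-* comparisons than in *Nova2-/-* cortex, a difference that the choice of rows favours.

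**Figure D2:**
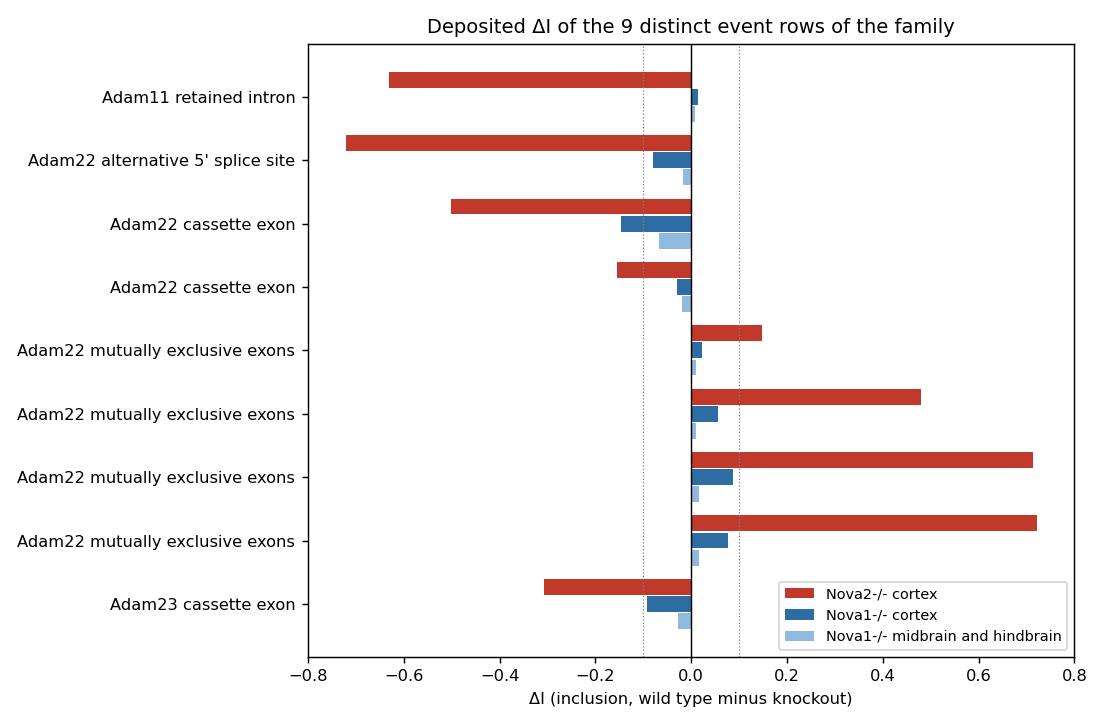
Deposited ΔI of the 9 distinct event rows of *Adam11*, *Adam22* and *Adam23*. The x axis is ΔI, wild type minus knockout, each bar is 1 deposited value, the colours give the 3 comparisons and the dotted lines mark a size of 0.1. The red bars reach from -0.720 to 0.721, and of the blue bars only that of an *Adam22* cassette exon, at -0.147, passes a dotted line.

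Levels of different genes were compared per length, as CPM per kb of annotated exon, over the 6 wild-type cortices. *Adam22* was highest at 25.3 ± 1.34 CPM per kb (SD, n = 6), above 88.3% of the 20971 genes with a length and a count. *Adam23* followed at 11.7 ± 1.68, *Adam11* at 6.82 ± 1.22 and *Lgi1*, the ligand linked to epilepsy, at 4.04 ± 0.245 CPM per kb. *Lgi2* lay at 1.98 ± 0.532, *Lgi3* at 0.621 ± 0.221 and *Lgi4* at 0.263 ± 0.0898 CPM per kb. On this length the receptors all lay above the ligands, and *Lgi1* made up 58.5% of the summed level of the ligands.

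Between neighbours in this order, the ranges over the 6 mice did not overlap for any pair but *Lgi3* and *Lgi4*. The lowest mouse for *Adam11* had 5.31 CPM per kb and the highest for *Lgi1* had 4.27. For *Lgi3* the lowest mouse had 0.324, below the highest for *Lgi4* at 0.381 CPM per kb, and *Lgi3* was above *Lgi4* in 5 of 6 mice. With the longest transcript as the length *Adam11* and *Lgi1* could not be ordered: the means were 7.58 and 7.42 CPM per kb, the ranges of 5.90 to 9.07 and 6.75 to 7.86 overlapped, and *Adam11* was the higher in 3 of 6 mice. The annotated exons of *Lgi4* share 2059 bases with *Fxyd3* on the opposite strand, and the libraries are not stated to keep strand, so reads of these genes cannot be told apart in that stretch. *Fxyd3* itself had group means of 0.0445 to 0.163 CPM.

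**Figure D3:**
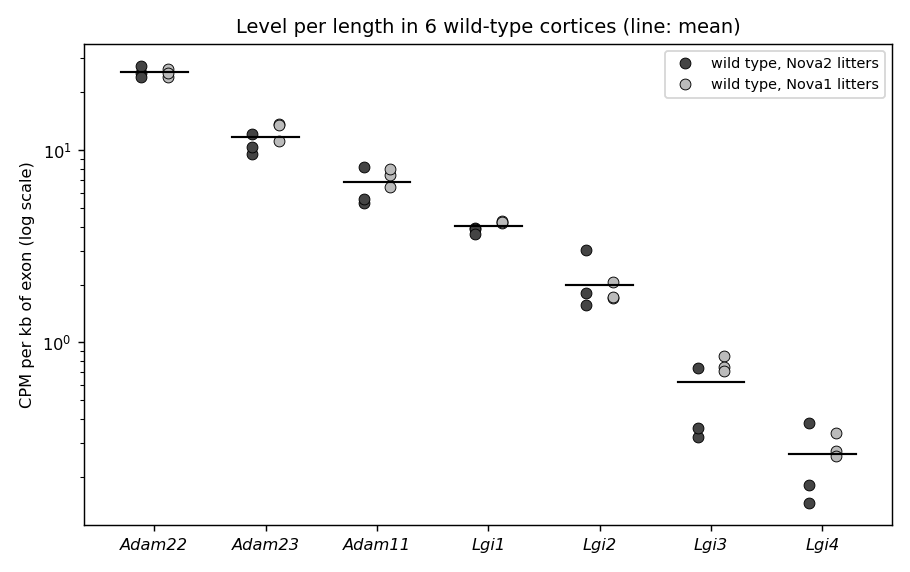
Level of each member in the 6 wild-type cortices. The y axis is CPM per kb of exon on a log scale, each point is 1 mouse, dark for the *Nova2* litters and light for the *Nova1* litters, and the line is the mean. The means fall from 25.3 for *Adam22* to 0.263 for *Lgi4*, and only the points of *Lgi3* and *Lgi4* share a range.

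The question for abundance was whether the level of any member differed between each knockout and its wild-type littermates. All 7 members passed the filter on low counts. A member was called where the adjusted p (FDR) was below 0.05 and the log2 fold change reached 1 in either direction. By these limits of the study, 0 of the 7 members were called in *Nova2-/-* cortex, beside 0.261% of the 15691 genes tested, and 0 were called at any fold change, beside 1.06%. In *Nova1-/-* cortex 0 of 7 were called, beside 0.0126% of 15901 genes. Both counts are from edgeR's quasi-likelihood test, and DESeq2 also called 0 of 7 in each comparison. With 7 members, counts of 0 are near these backgrounds. At an unadjusted p below 0.05 there was 1 member in *Nova2-/-* cortex, *Adam22*, beside 19.2% of genes, and none in *Nova1-/-* cortex, beside 7.44%.

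Among the receptors, *Adam22* had 264, 271 and 288.5 CPM in the 3 *Nova2-/-* cortices and 308, 295 and 336 CPM in the wild-type littermates. The 3 knockout values all lay below the 3 wild-type values, as in 14% of the genes tested. The log2 fold change was -0.18 ± 0.07 (SE), and -0.12 without wild-type mouse 3. Of 8 neuronal markers listed, 7 were found by symbol. Their summed level was 4219 to 4666 CPM in these *Nova2-/-* cortices and 4759 to 5227 CPM in the wild types. In *Nova2-/-* cortex 6 of 7 markers were lower and 1 was higher, beside 8128 of 15691 genes tested that were higher. Past the FDR limit were 0 of 7, beside 0.363% of genes that passed as lower. The part of the neuronal markers in the value of *Adam22* was not tested. In bulk tissue, fewer cells of a type and less RNA per cell cannot be told apart.

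*Adam23* had 106, 103 and 111 CPM in *Nova2-/-* cortex and 105, 114 and 133 CPM in the wild types, so the groups overlapped. Its log2 fold change was -0.12 ± 0.10 (SE), and -0.01 without wild-type mouse 3. *Adam11*, a receptor found on neurons, had 28.1, 35.9 and 29.2 CPM in *Nova2-/-* cortex and 30.1, 31.7 and 46.3 CPM in the wild types. Its wild-type mouse 3 stood well above the other two, and the log2 fold change of -0.21 ± 0.18 (SE) turned to 0.03 without that mouse.

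Among the ligands, *Lgi1* had 29.98, 27.1 and 27.2 CPM in *Nova2-/-* cortex and 30.8, 30.4 and 28.7 CPM in the wild types, and its log2 fold change was -0.08 ± 0.09 (SE), or -0.13 without *Nova2-/-* mouse 1. *Lgi2*, a paralogue also linked to seizures, had 10.8, 10.98 and 9.81 CPM in *Nova2-/-* cortex against 11.5, 10.01 and 19.2 CPM. The third wild-type mouse alone was high, and the log2 fold change of -0.37 ± 0.23 (SE) became -0.02 without it. *Lgi3* had 1.69, 1.88 and 2.13 CPM against 1.03, 1.15 and 2.34 CPM, with a log2 fold change of 0.32 ± 0.35 (SE), or 0.83 without wild-type mouse 3. *Lgi4* had 1.201, 0.627 and 1.07 CPM against 0.832, 1.75 and 0.670 CPM, and its log2 fold change of -0.10 ± 0.45 (SE) became -0.36 without wild-type mouse 3 and 0.38 without wild-type mouse 2, which had the highest value. The 4 ligands thus overlapped between the groups in every case.

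**Figure D4:**
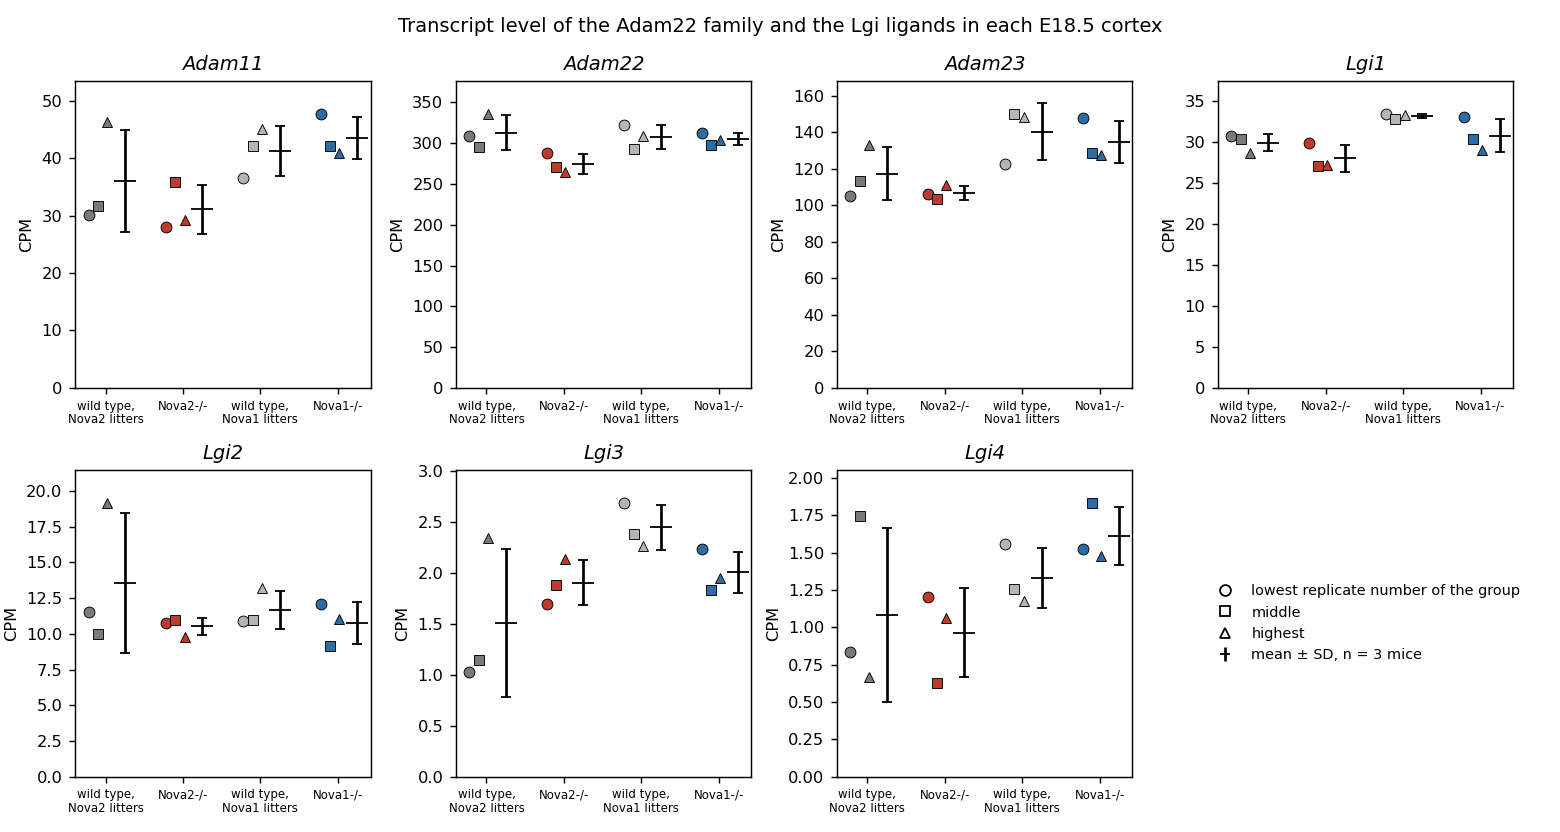
Level of each member in each of the 12 cortices. The y axis of each panel is CPM, each symbol is 1 mouse, and the bar with caps is the mean ± SD of 3 mice. Wild-type mouse 3 of the *Nova2* litters, the grey triangle, is well above the other wild types of its litters for *Adam11*, *Lgi2* and *Lgi3*. For *Lgi3* its 2.34 CPM lies within the 2.26 to 2.69 CPM of the wild types of the *Nova1* litters. For *Adam11* its 46.3 CPM is near the highest of those wild types, 45.2 CPM. Only for *Adam22* do the *Nova2-/-* mice all lie below their wild types.

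In the *Nova1* litters *Adam22* had 313, 298 and 304 CPM in *Nova1-/-* cortex and 322, 293 and 309 CPM in the wild types, a log2 fold change of -0.01 ± 0.05 (SE; adjusted p = 0.968). For *Adam23* the values were 148, 129 and 128 CPM against 122, 150 and 149 CPM, and the log2 fold change was -0.06 ± 0.08 (SE; adjusted p = 0.913). *Adam11* had 47.7, 42.1 and 40.9 CPM against 36.6, 42.1 and 45.2 CPM, with a log2 fold change of 0.08 ± 0.09 (SE; adjusted p = 0.888). All 3 receptors overlapped between the groups. With single mice left out, the change ran from -0.145 to -0.0055 for *Adam23* and from 0.00099 to 0.147 for *Adam11*.

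Of the ligands in the *Nova1* litters, *Lgi3* did not overlap, at 2.23, 1.83 and 1.94 CPM in *Nova1-/-* cortex below 2.69, 2.38 and 2.26 CPM in the wild types, as in 6.80% of the genes tested. Its log2 fold change of -0.29 ± 0.19 (SE) did not pass the test (adjusted p = 0.782). *Lgi1* had 33.0, 30.4 and 29.0 CPM against 33.5, 32.9 and 33.3 CPM, with a log2 fold change of -0.11 ± 0.07 (SE; adjusted p = 0.795). *Lgi2* and *Lgi4* had log2 fold changes of -0.12 ± 0.13 and 0.28 ± 0.23 (SE), with adjusted p of 0.870 and 0.828 and overlapping groups. With single mice left out, the change ran from -0.22 to -0.015 for *Lgi2* and from 0.18 to 0.42 for *Lgi4*.

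The difference between the changes in the 2 knockouts, *Nova2-/-* less *Nova1-/-*, was called by edgeR for 0 of 7 members, beside 0.697% of 16210 genes, for 0 at any fold change, beside 1.83%, and for 0 by DESeq2. At an unadjusted p below 0.05 there were also 0 members, beside 18.2% of genes. This contrast contains the *Nova2* values. Without wild-type mouse 3 it was called for 1 member, *Lgi3*, at 1.11 on the log2 scale (adjusted p = 0.0455). The shares above are from the fit with all mice. Counts over all genes also changed with single mice left out, as given in the last section. Nothing particular to *Lgi3* is therefore read from this call.

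The wild types of the *Nova1* litters were set against those of the *Nova2* litters to show how far the members differ without a knockout. The sets also differed in their deposited counts. Expected counts that were not whole numbers made up 7.483% to 11.74% in the wild-type and knockout cortices of the *Nova2* litters. In every cortex of the *Nova1* litters they made up at least 18.6%. The part of this difference in the members' values was not tested. None of the 7 was called by edgeR or DESeq2, beside 0.647% of 15918 genes in edgeR, and none passed at any fold change, beside 3.03%. At an unadjusted p below 0.05 there was 1, *Adam23*, beside 21.1% of genes. Taking the *Nova1* litters minus the *Nova2* litters, the log2 difference was 0.27 ± 0.11 (SE; adjusted p = 0.210) for *Adam23*, 0.20 ± 0.17 (SE; adjusted p = 0.534) for *Adam11* and 0.67 ± 0.33 (SE; adjusted p = 0.284) for *Lgi3*. For *Adam22* it was -0.01 ± 0.07 (SE; adjusted p = 0.938). *Lgi1* was higher in each of the 3 wild types of the *Nova1* litters, at 32.9 to 33.5 CPM against 28.7 to 30.8 CPM, as in 13.6% of genes, with a log2 difference of 0.16 ± 0.08 (SE; adjusted p = 0.313).

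One library decided these calls. Without wild-type mouse 3 of the *Nova2* litters, *Adam11* at 0.44 (adjusted p = 0.00765), *Adam23* at 0.38 (adjusted p = 0.00924) and *Lgi3* at 1.19 (adjusted p = 0.00944) passed the FDR limit between the wild types, and *Lgi3* also passed the limit on the fold. That mouse left out, the calls over all genes by both limits, FDR and fold, rose from 103 to 459. The share of all genes past the FDR limit alone was not counted in this fit. Nothing particular to these members is therefore read from their passing it. The meningeal fibroblast markers, which are genes of the membranes around the brain, summed to 226, 299 and 572 CPM in wild-type mice 1 to 3 of the *Nova2* litters, against 880 to 1072 CPM in *Nova2-/-* mice and 797 to 1006 CPM in the other wild types. In *Nova2-/-* cortex 11 of 11 were higher than in wild type and 3 of 11 passed the FDR limit, and between the wild types the counts were 11 and 4. Over all genes tested, 8128 of 15691 were higher in *Nova2-/-* cortex and 0.695% passed the FDR limit as higher. Between the wild types, 7905 of 15918 were higher in the *Nova1* litters and 1.80% passed as higher. None of the 11 was at 0 in any mouse. Their part in the members' values was not tested.

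**Figure D5:**
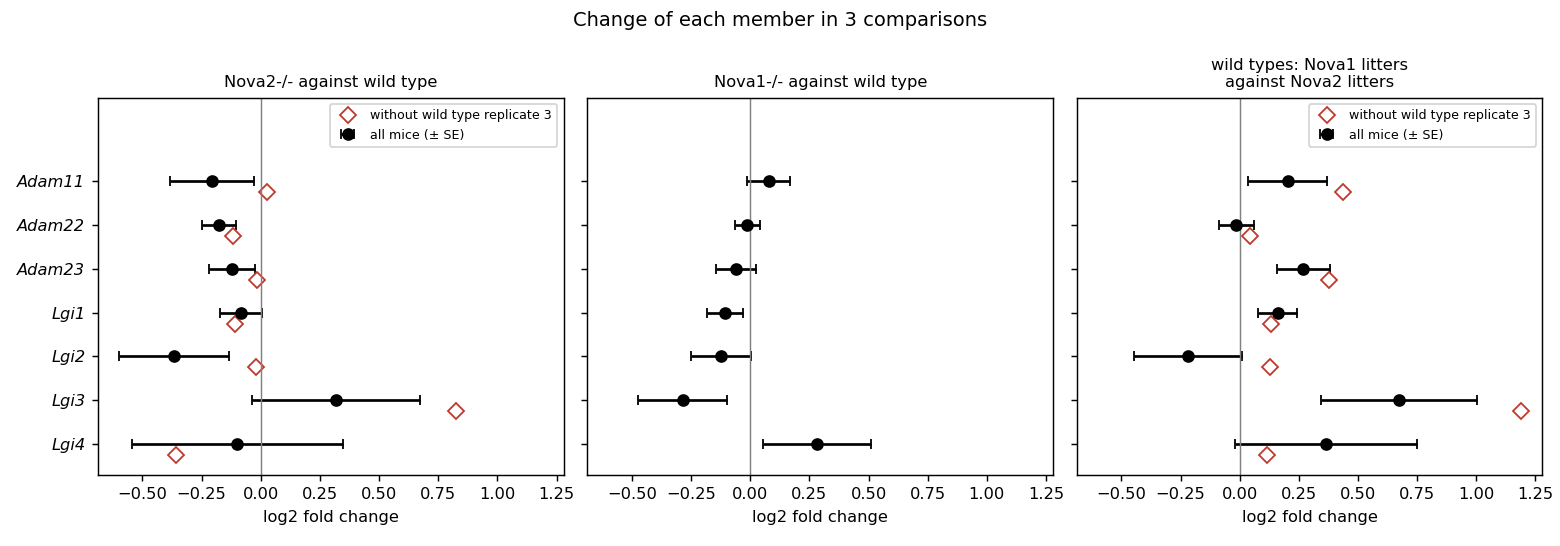
Log2 fold change of each member in 3 comparisons. Filled points are the values from all mice with their SE, and open diamonds are the values without wild-type mouse 3 of the *Nova2* litters, which enters the left and right panels. In the left panel *Adam11* and *Lgi2* move from -0.21 and -0.37 to 0.03 and -0.02, and in the right panel *Lgi3* moves from 0.67 to 1.19.

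Proteins that work with the family or resemble it in structure were followed in a list of 49 gene symbols. It held partners in the complex, AMPA receptor and auxiliary subunits, 14-3-3 proteins, and Nogo receptors with *Rtn4* and *Lingo1*. ADAMs with protease activity and other EAR-repeat proteins were in it as relatives. In *Nova2-/-* cortex 44 could be tested, of which 1 was higher and 1 lower at an FDR below 0.05, beside 0.695% and 0.363% of all genes. The median log2 fold change was -0.06 over these genes and 0.01 over all. *Dlg3*, which encodes the PSD-95 family scaffold SAP102, fell by 0.63 on the log2 scale (SE 0.07; adjusted p = 0.00977), and lost the call without wild-type mouse 2, *Nova2-/-* mouse 1 or *Nova2-/-* mouse 2, with the change between -0.65 and -0.61 over the 6 fits with 1 mouse left out. *Adam12*, a protease of connective tissue and muscle, rose by 0.95 (SE 0.17; adjusted p = 0.0466), and passed only without wild-type mouse 3 among the 6 fits with 1 mouse left out. In the same mice the meningeal markers moved as given above, and their part in *Adam12* was not tested.

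In *Nova1-/-* cortex 0 of 45 genes of the list passed at an FDR below 0.05, beside 0.0126% of all genes. *Dlg3* had a log2 fold change of -0.04 (adjusted p = 0.925) and *Adam12* of -0.17 (adjusted p = 0.654). The difference between the knockouts' changes passed for both, at -0.60 for *Dlg3* (adjusted p = 0.00638) and 1.11 for *Adam12* (adjusted p = 0.0116), beside 1.83% of all genes. Between the wild types of the 2 sets of litters 3 of 45 passed, all higher in the *Nova1* litters, beside 1.80%: *Gria3*, an AMPA receptor subunit, at 0.38 (adjusted p = 0.0340), *Adam10*, a sheddase of neuronal surface proteins, at 0.49 (adjusted p = 0.0301) and *Adam12* at 0.87 (adjusted p = 0.0340). Without wild-type mouse 3 the count became 17, and without any other single mouse it became 0. Calls over all genes also rose without wild-type mouse 3, as given above. The share of all genes at an FDR below 0.05 was not counted in that fit. Nothing is therefore read about the list from the 17.

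By group, 0 of 10 genes of AMPA receptor and auxiliary subunits passed in *Nova2-/-* cortex, with a median log2 fold change of -0.06. The same held for 0 of 6 14-3-3 genes and 0 of 5 genes of the Nogo receptor group, with medians of -0.13 and -0.13. The 15 complex partners had a median of -0.09, and *Dlg3* was the 1 that passed. The 7 tested ADAM proteases had a median of 0.25, and *Adam12* was the 1 that passed.

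Of the 49 symbols, 3 had rows in the event table, with 13 rows in all. *Dlg3* had 9 rows, with ΔI from -0.608 to 0.423 in *Nova2-/-* cortex and from -0.0743 to 0.0826 in *Nova1-/-* cortex. *Cask*, a scaffold kinase of the presynapse, had 3 rows, from -0.258 to 0.594 and from -0.0463 to 0.0414. *Gria4*, an AMPA receptor subunit, had 1 row, at -0.279 in *Nova2-/-* cortex and -0.0488 in *Nova1-/-* cortex.

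The genes with the pattern most like each member were found by Pearson's r of log2 CPM over the 12 cortices among 16210 genes, as a description. The 12 points share libraries, and differences between the litters enter r. For *Adam22* they were *Atp6v1d* (r = 0.934), *Gsto1* (0.927) and *Mtap2* (0.923), and for *Adam23* they were *Grid1* (0.958), *Kcnma1* (0.957) and *Lphn3* (0.949). *Galnt14* (0.965), *Hsd3b1* (0.946) and *Tmem145* (0.945) were most like *Adam11*. Of the ligands, *Lgi1* was most like *Lingo2* (0.938), *Rnf152* (0.936) and *Pgm2l1* (0.928), and *Lgi2* most like *6430548M08Rik* (0.929), *Prkar1b* (0.903) and *Peg13* (0.897). For *Lgi3* these were *Nr3c2* (0.944), *Pogz* (0.936) and *Usp13* (0.931), and for *Lgi4* they were *Gm11110* (0.863), *Dnajc4* (0.855) and *Snhg8* (0.854). Among the members themselves r was highest for *Adam11* and *Adam23*, at 0.869, and lowest for *Lgi2* and *Lgi4*, at -0.562.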

How the data were processed

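Ribosomal RNA was removed from total RNA, and TruSeq libraries were read from both ends. The authors aligned the reads with OLego to mm10 and deposited expected counts per gene symbol, unnormalized, for 12 cortices; the counter and annotation are not given in the sources used here. They also deposited ΔI, a score from -1 to 1, per event, converted to mm9. The authors' fold changes and FDR columns were not used. The sign of ΔI is not in the header and was taken from directions the paper states.

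Wild types 1 to 3 were taken as *Nova2* littermates and 4 to 6 as *Nova1* littermates from their numbers and the paper's methods. Counts were rounded and compared in edgeR 4.0.16 (R 4.3.3) with TMM, filterByExpr and the quasi-likelihood test, with Benjamini-Hochberg adjustment over all genes tested. CPM used TMM-scaled totals of all 12 cortices. Fold changes depend on edgeR's prior count for low genes such as *Lgi3* and *Lgi4*. The SE of an edgeR fold change was derived as its size over the square root of the quasi-likelihood F statistic, and was not estimated by the model. Deposited starts count from 0 (87.8% match an exon start after adding 1); printed positions count from 1.

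Named were all members and their events, the 3 genes most like each member (prior count 2), listed genes past FDR 0.05 or with an event, and *Nova1* and *Nova2*. *Neurod6* and *Fxyd3* were named after their values were seen. A list of markers is not reported here. Members and lists were chosen with earlier results of these data known. Alternatives were DESeq2 1.42.0, upper-quartile scaling, other filters, each mouse left out, a replicate block, other controls and other limits; leaving out single mice for the listed genes was added after the data were seen. Python 3.11.15, pandas 2.3.3 and matplotlib 3.10.9 were used.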

Additional observations from a re-analysis of the deposited data

Results flagged for a closer look

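The level of *Lgi2* in the 6 wild-type cortices held 1 mouse far from the others, wild-type mouse 3 of the *Nova2* litters, at 19.2 CPM against 10.01 to 13.2 CPM in the other 5. The gap to the nearest mouse was 0.654 of the whole range, above Dixon's critical value for 6 samples. It was the only one of the 7 members past that limit, which chance passes in about 1 of 20 groups.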

How the results depend on the processing

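The count of members called stayed at 0 in *Nova2-/-* cortex under all 13 fits tried in place of the first, in *Nova1-/-* cortex under all 12, and at any fold change. That includes the replicate block in the *Nova2* litters, which called 0 members and 55 genes against 41. The correlations of the same-numbered mice were 0.0897, -0.0153 and 0.145, beside -0.184 to 0.121 for mice of different numbers. With 3 mice per group, these values cannot decide whether the numbers pair the mice. Leaving out single mice gave counts of 0 to 1 between the wild types and 0 to 1 for the difference between the knockouts, and the 1 rested on wild-type mouse 3. Over all genes, the *Nova2* count ran from 4 to 254 with single mice left out and was 129 with DESeq2, 67 without a filter and 185 with all 12 cortices in one fit. The *Nova1* count of 2 ran from 1 to 7 and was 4 with DESeq2, the count of 103 between the wild types ran from 3 to 459, and that of 113 for the difference between the knockouts ran from 59 to 315 and was 207 with DESeq2. At any fold change the 4 counts were 166, 2, 483 and 296. Signs turned for *Adam22* in *Nova1-/-* (-0.045 to 0.024 with single mice left out), for *Adam22* and *Lgi2* between the wild types (-0.056 to 0.045 and -0.39 to 0.13) and, with all 6 wild types as controls in *Nova1-/-*, for *Adam23* (0.066) and *Lgi3* (0.0054); none of these passed the test. In the *Nova2* contrast they turned for *Adam11* (-0.33 to 0.025) and *Lgi4* (-0.36 to 0.38) with single mice left out and for *Lgi3* (-0.069) with all 6 wild types as controls, which also gave -0.27 for *Adam23* and -0.168 for *Lgi1*. With single mice left out, the difference between the wild types ran from 0.08 to 0.44 for *Adam11*, 0.19 to 0.38 for *Adam23*, 0.44 to 1.19 for *Lgi3* and 0.11 to 0.84 for *Lgi4*. Joining overlapping rows left 3 event regions of 10 rows, and a limit of 0.2 left 0 rows in *Nova1-/-* cortex, where it was 1, and 8 in *Nova2-/-* cortex. The order of the 7 mean levels held for each set of wild types and for the longest transcript, but with that length *Adam11* was above *Lgi1* in only 3 of 6 mice, so receptors above ligands depends on the length used. Depth limits *Lgi3* (19 to 76 counts per mouse) and *Lgi4* (14 to 54), and ΔI has no depth or replicate.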
